A study of Rattus norvegicus with 3 samples.

Results

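Voltage-gated sodium and calcium channels were described here at the level of their subunit transcripts in the motor cortex of rats after cerebral ischemia and reperfusion (CIR), in which blood supply to the brain is lost and then returns. The members are the 40 genes whose symbol names a calcium channel alpha1, alpha2delta, beta or gamma subunit or a sodium channel alpha or beta subunit, out of 30957 genes in each file, and each stands on its own row. They were chosen by name, not by level. The 3 animals, males of the Sprague-Dawley strain, carry the numbers 19, 35 and 70 and form 1 group, with no control group analysed here. All are labelled 8 weeks, without a statement of whether this is an age or a time after the operation, and how ischemia was induced was not stated in the labels. Levels are given in FPKM, the number of fragments of a gene scaled to its length in kilobases and to 1000000 fragments of the library. Wherever 3 values stand in a row, they are FPKM in rats 19, 35 and 70, in that order.

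Sodium channels open on depolarization and carry the rising phase of the action potential. Their large alpha subunit forms the pore, and small beta subunits tune its gating and tie it to adhesion proteins. Calcium channels turn depolarization into calcium entry: an alpha1 subunit forms the pore of the L, P/Q, N, R and T types, a cytoplasmic beta subunit and an extracellular alpha2delta subunit bring most types to the membrane, and most gamma subunits of neurons serve AMPA-type glutamate receptors as transmembrane regulatory proteins (TARPs). Cortical neurons use these channels for spike initiation in the axon, transmitter release at the terminal and integration in the dendrite.

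The 3 libraries were of like depth and unlike make-up. Effective depths recovered from the values were 15560000, 16460000 and 16050000 fragments. Snap25, a synaptic fusion protein gene, was at 383, 12.2 and 564 FPKM, and the median over all 11 pan-neuronal markers was 97.0, 7.79 and 123. Rat 35 stood apart, with the lowest level of each of these 11 genes. The cortical label was checked on markers of excitatory cortical neurons: Slc17a7 was at 324, 12.2 and 383, while the cortical transcription factor gene Tbr1 was at 14.0, 0.030 and 3.51, near 0 in rat 35. Slc17a6, the vesicular glutamate transporter of many subcortical neurons, was at 1.73, 0.015 and 28.7, highest in rat 70. The summed level of the 8 fibroblast and meningeal markers was 1459, 3932 and 1031, and that of the 9 microglia and macrophage markers 1069, 2987 and 742, both highest in rat 35; Col1a2 was listed at 0 in every rat. The 8 astrocyte markers summed to 3043, 1005 and 1883 and the 7 oligodendrocyte markers to 4318, 3619 and 5675. Gfap, at 1878, 564 and 688, carried much of the astrocyte sum. The median over the 8 astrocyte markers was 77.8, 42.4 and 81.1, close in rats 19 and 70. In these bulk samples fewer cells of a type and less RNA per cell cannot be told apart. The part that these differences in make-up have in the results on the channels was not tested.

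Nearly every channel subunit was lowest in rat 35, and most were highest in rat 70. Of all 40 members, 35 had their lowest value in rat 35, against 34.9% of the 19403 genes above 0 in any rat. Scn10a and Cacng1 were tied at 0 in rats 35 and 70, Cacna1c and Cacng6 were lowest in rat 19 (17.6% of genes), and Cacna1f was lowest in rat 70 (39.0%). The highest value was in rat 70 for 28 of 40 members, against 29.4%, in rat 19 for 12, against 29.3%, and in rat 35 for 0, against 41.3%. A difference of more than 2-fold between the highest and the lowest rat, on the FPKM + 1 scale, was met by 31 of 40 members, against 32.8% of those genes. Rat 35 lay more than 2-fold below both other rats for 22 of 40 members, against 8.75% of genes. Rat 70 lay more than 2-fold above both others for 14 of 40, against 2.95%. Compared with rat 19 alone it was more than 2-fold higher for 16 of 40, against 3.76%, and more than 2-fold lower for 0 of 40, against 4.68%. The median deviation from a gene's own 3-rat mean in log2(FPKM + 1) was 0.21, -1.22 and 0.82 in rats 19, 35 and 70 over the 40 members, and 0.01, 0.01 and -0.05 over the 19403 genes.

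A mean of 1 FPKM or more was reached by 30 members. Of these, 29 were lowest in rat 35, against 36.5% of the 14134 genes at that level, 1 in rat 19, against 19.3%, and 0 in rat 70, against 44.2%. The highest value was in rat 70 for 26, against 29.8%, in rat 19 for 4, against 24.8%, and in rat 35 for 0, against 45.4%. A 2-fold difference between rats was passed by 29, against 42.5%; rat 35 lay that far below both others for 22, against 11.9%, and rat 70 that far above both for 14, against 3.81%. A member that is high in 1 rat alone can pass this minimum through that rat. Without rat 35, 15 of 30 members differed by more than 2-fold, against 11.1% of 13980 genes. Without rat 19 it was 27 of 30, against 37.2%, and without rat 70 it was 22 of 28, against 26.0%. Rat 70 lay more than 2-fold above rat 19 for 15 of the 30 members, against 4.84% of the 14134 genes. It lay more than 2-fold below rat 19 for 0 of 30, against 6.11%. With 1 group of 3 rats there is no test between groups, and these counts describe 3 animals.

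**Figure D1:**
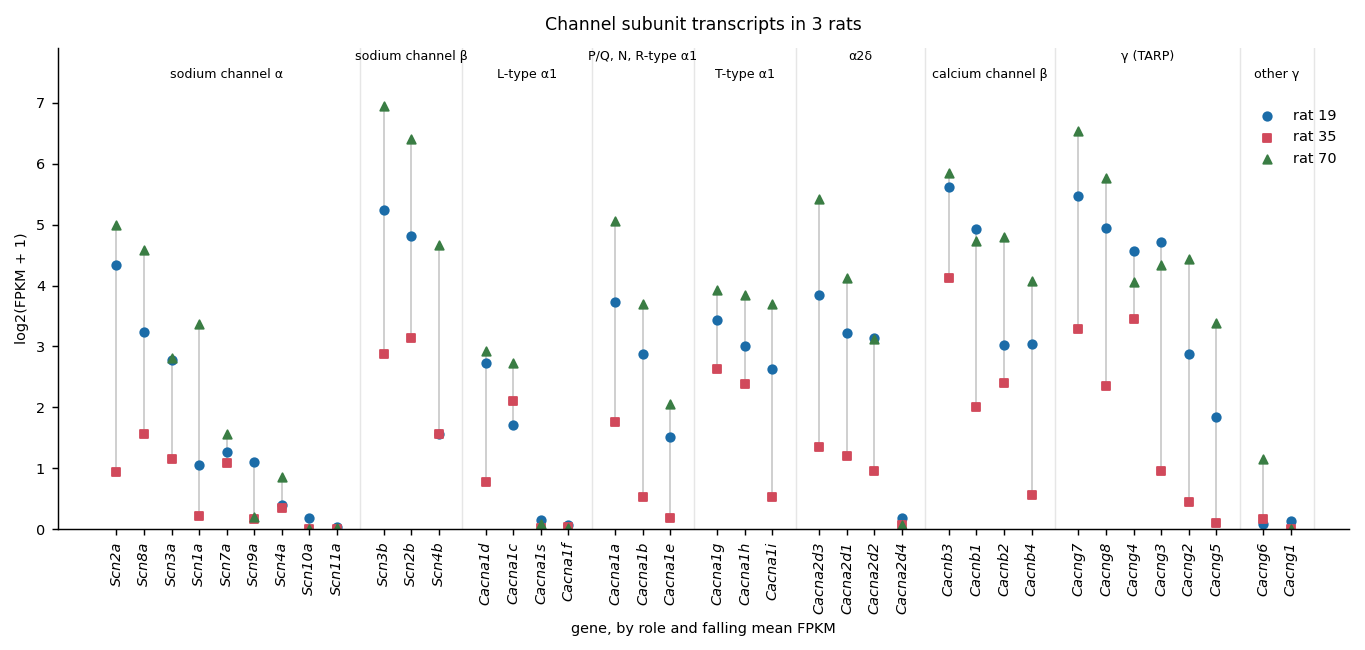
Level of 38 of the 40 subunit genes in rats 19 (circles), 35 (squares) and 70 (triangles), as log2(FPKM + 1), ordered by role and by falling mean. Of the 38 genes drawn, 33 have their lowest point in rat 35; Cacna1c, with 2.29, 3.31 and 5.61 FPKM, is an exception.

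Among the 10 sodium channel alpha genes, the neuronal forms of the brain had their lowest value in rat 35 and their highest in rat 70, by margins over rat 19 that differed widely. Scn2a, the alpha subunit of excitatory axons, had the highest mean of the alpha genes at 19.3, 0.91 and 30.7 FPKM (16.96 ± 15.03, SD, n = 3). Its value in rat 35 rested on 151 fragments, with an exact Poisson 95% interval of 0.77 to 1.07 FPKM, so counting error does not reach the values of the other rats. Scn8a, which carries firing at the axon initial segment and the nodes of Ranvier, was at 8.44, 1.96 and 22.8 (11.1 ± 10.7). Scn3a, the alpha subunit that prevails in the embryonic brain, was at 5.89, 1.23 and 6.05 (4.39 ± 2.74), level between rats 19 and 70. Scn1a, on which fast-spiking inhibitory neurons depend, was at 1.08, 0.16 and 9.35 (3.53 ± 5.06).

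Scn1a thus differed far more between rats 70 and 19 than Scn8a, Scn2a and Scn3a did. In FPKM the ratio of rat 70 to rat 19 was 8.62 for Scn1a, 2.71 for Scn8a, 1.59 for Scn2a and 1.03 for Scn3a. Another alpha gene, Scn9a, differed widely in the other direction, with a ratio of 0.13. The values of Scn1a rested on 208, 32 and 1850 fragments. The 8 inhibitory markers summed to 310, 25.3 and 227 FPKM, with Npy listed at 0 in every rat. Pvalb, the calcium buffer of fast-spiking inhibitory neurons, was at 17.8, 4.41 and 75.5 FPKM, and the general inhibitory marker Gad1 at 27.6, 1.78 and 37.4, both highest in rat 70. Other markers of the list were highest in rat 19, namely Sst (204.8, 13.8 and 45.0), which carried most of the sum there, Vip (17.5, 0.73 and 6.86) and Lhx6 (2.18, 1.70 and 1.06). The neurofilament genes Nefl (60.8, 3.402 and 207.5) and Nefm (15.9, 2.36 and 77.1) were highest in rat 70. The part of these markers in the Scn1a values was not tested.

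Scn7a, which encodes a sodium-level sensor of glia and some neurons rather than a voltage-gated channel, was nearly level at 1.42, 1.13 and 1.96 FPKM (1.503 ± 0.42), on 113, 95 and 161 fragments. It made up 3.66%, 19.5% and 2.73% of the summed FPKM of the alpha genes, so its share was largest in rat 35. Scn2a took 49.7%, 15.7% and 42.7% of that sum and Scn8a 21.8%, 33.8% and 31.8%, which put Scn8a ahead of Scn2a in rat 35 alone.

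Alpha genes known from skeletal muscle and sensory neurons were low, but not equally low in all rats. Scn9a, an alpha subunit of sensory and some central neurons, was at 1.14, 0.13 and 0.15 FPKM, on 188, 22 and 25 fragments. It was highest in rat 19, like Scn10a and Scn11a, which were near 0. Scn4a, the skeletal muscle form, was at 0.32, 0.27 and 0.81. The sensory neuron gene Scn11a was at 0.022, 0 and 0.011, which is 2, 0 and 1 fragments and below the 3 fragments that a count of 0 allows in each rat. Scn10a was at 0.14 in rat 19 and listed at 0 in both others. The summed level of the 7 skeletal muscle markers in the files was 9.43, 4.002 and 5.56 FPKM, with Acta1 at 6.35, 0.42 and 4.25, Tnnt3 at 1.90, 3.4997 and 0.74, and Ckm listed at 0 in every rat. Of the 7 sensory neuron and Schwann cell markers, 2 reached a mean of 1 FPKM, and 3, 2 and 0 were listed at 0 in rats 19, 35 and 70. Among the neuronal ones, Prph was at 1.83, 0.69 and 1.78 and Isl1 at 0, 0 and 0.69. The part of these cells in the low alpha genes was not tested.

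Apart from Scn4b, the sodium channel beta genes were among the most abundant members, and all 4 were more than 2-fold higher in rat 70 than in rat 19. Scn3b was at 36.7, 6.38 and 122 FPKM (55.1 ± 60.1, SD, n = 3) and had the highest mean of all members. Scn2b, whose product is linked to alpha subunits by a disulfide bond, was at 27.1, 7.85 and 83.5 (39.5 ± 39.3). Scn4b, whose product can act as the open-channel blocker of resurgent sodium current, was at 1.97, 1.95 and 24.4 (9.43 ± 12.9).

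Unlike Scn2b and Scn3b, Scn4b was level in rats 19 and 35, and which of them was lowest turned when each library was rescaled to a common sum. In rat 70 it was at 12.4 times the level in rat 19. Its values rested on 131, 137 and 1670 fragments. The FPKM ratio of rat 70 to rat 19 was 3.33 for Scn3b and 3.08 for Scn2b. In log2(FPKM + 1), the difference of rat 70 minus rat 19 was 3.09 for Scn4b and 2.31 for Scn1a, and these were the only members above the range of the 11 pan-neuronal markers, which ran from -0.86 to 2.204. Scn4b is abundant in the striatum, and the 6 markers of striatal projection neurons summed to 102, 23.5 and 57.2 FPKM. Of these, 4 were highest in rat 19, among them Penk at 51.1, 6.06 and 6.28, which carried much of the sum there. Ppp1r1b, at 36.7, 13.7 and 44.6, was highest in rat 70. The 5 hippocampal markers summed to 61.1, 13.9 and 73.8, of which the CA neuron marker Wfs1 gave 56.4, 11.5 and 34.5. Of the dentate granule cell markers of that list, C1ql2 (2.17, 0.18 and 28.7) and Prox1 (2.33, 1.80 and 10.2) were far higher in rat 70 than in rat 19. Dsp did not share this, at 0.19, 0.46 and 0.36, low in every rat and highest in rat 35. The 5 choroid plexus and ependyma markers measured summed to 41.3, 14.1 and 371, of which Ttr gave 33.1, 0.17 and 362. The other markers of that list did not share the pattern of Ttr. Folr1 was at 1.57, 2.09 and 2.02, Kl at 0.45, 0.63 and 0.63, Aqp1 at 2.43, 10.2 and 3.37, and Ccdc153 at 3.78, 0.96 and 3.47. The part of tissue from other regions in the Scn4b values was not tested.

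**Figure D2:**
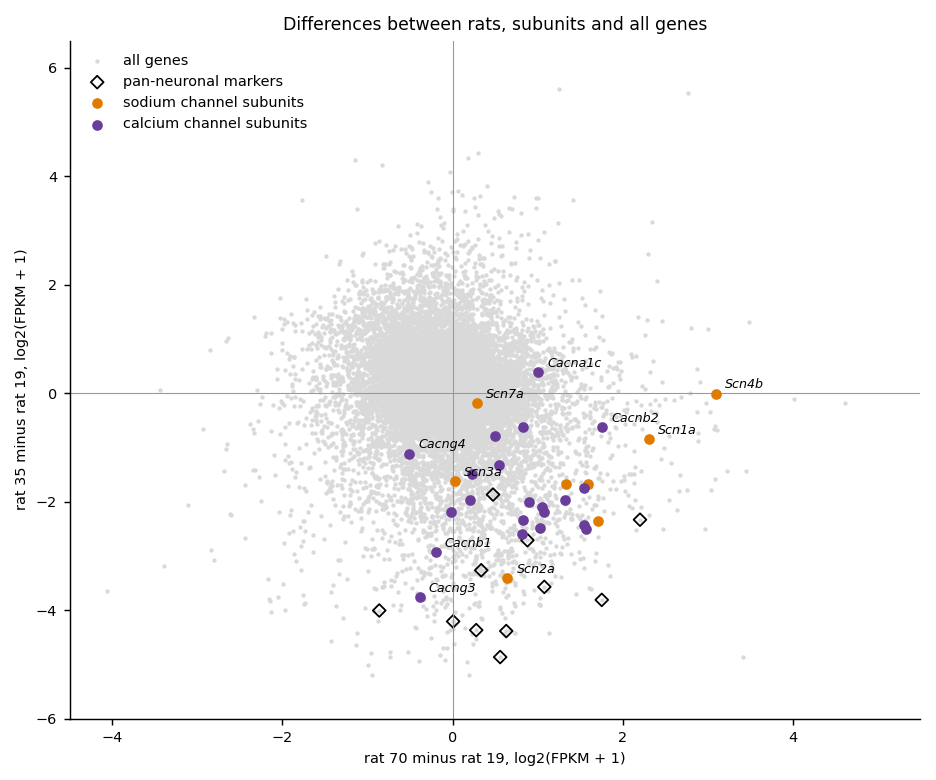
Difference of rat 70 minus rat 19 (horizontal) and of rat 35 minus rat 19 (vertical) in log2(FPKM + 1), for 14134 genes (grey), sodium (orange) and calcium (purple) channel subunits and 11 pan-neuronal markers (open diamonds). Both axes share rat 19, so the shape of the cloud is no result; Scn4b at 3.09 and Scn1a at 2.31 lie farthest right among the subunits.

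Of the L-type calcium channel genes, which couple depolarization to gene expression in neurons and to contraction in muscle, Cacna1c and Cacna1d were measured well and did not run together. Cacna1c was at 2.29, 3.31 and 5.61 FPKM (3.74 ± 1.70, SD, n = 3), on 322, 493 and 813 fragments. Cacna1d was at 5.63, 0.70 and 6.64 (4.32 ± 3.18), on 1015, 134 and 1235 fragments. Cacna1c was the only one of the 30 members at 1 FPKM or more that was lowest in rat 19, while Cacna1d was lowest in rat 35. Cacna1c is also the L-type channel of vascular smooth muscle, and the 7 pericyte and smooth muscle markers summed to 199.9, 377 and 112 FPKM, with Pdgfrb at 21.8, 102 and 18.4. The 6 endothelial markers summed to 186, 348 and 148, with Cldn5 at 80.3, 131 and 63.7. Both lists were highest in rat 35, and their part in the Cacna1c values was not tested. The retinal gene Cacna1f and the skeletal muscle gene Cacna1s stayed at or under 0.053 and 0.12 FPKM in every rat, on at most 5 and 10 fragments.

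The 3 genes of the presynaptic P/Q, N and R types kept the order of rats seen in most members. Cacna1a, the P/Q-type pore of fast transmitter release, was at 12.2, 2.39 and 32.2 FPKM (15.6 ± 15.2). Cacna1b, the N-type pore, was at 6.31, 0.44 and 11.98 (6.25 ± 5.77). Cacna1e, the R-type pore, was lower at 1.84, 0.14 and 3.15 (1.71 ± 1.51). Cacna1a exceeded Cacna1b, and Cacna1b exceeded Cacna1e, in every rat.

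The T-type genes, whose channels open near rest and drive burst firing, split into Cacna1i on one side and Cacna1g and Cacna1h on the other. Cacna1g was at 9.81, 5.22 and 14.3 FPKM (9.77 ± 4.53) and Cacna1h at 7.06, 4.25 and 13.3 (8.21 ± 4.64). Cacna1i was at 5.20, 0.45 and 11.9 (5.85 ± 5.75). In rat 35 Cacna1g and Cacna1h thus stood at 5.22 and 4.25 FPKM, when Cacna1i was under 1. They made up 30.8% and 25.1% of the summed FPKM of the 10 alpha1 genes in rat 35, and Cacna1c 19.6%. In rat 70 the shares were 14.4%, 13.4% and 5.65%, and in rat 19 they were 19.4%, 14.0% and 4.53%, where Cacna1a led with 32.5% and 24.2% of the sum.

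**Figure D3:**
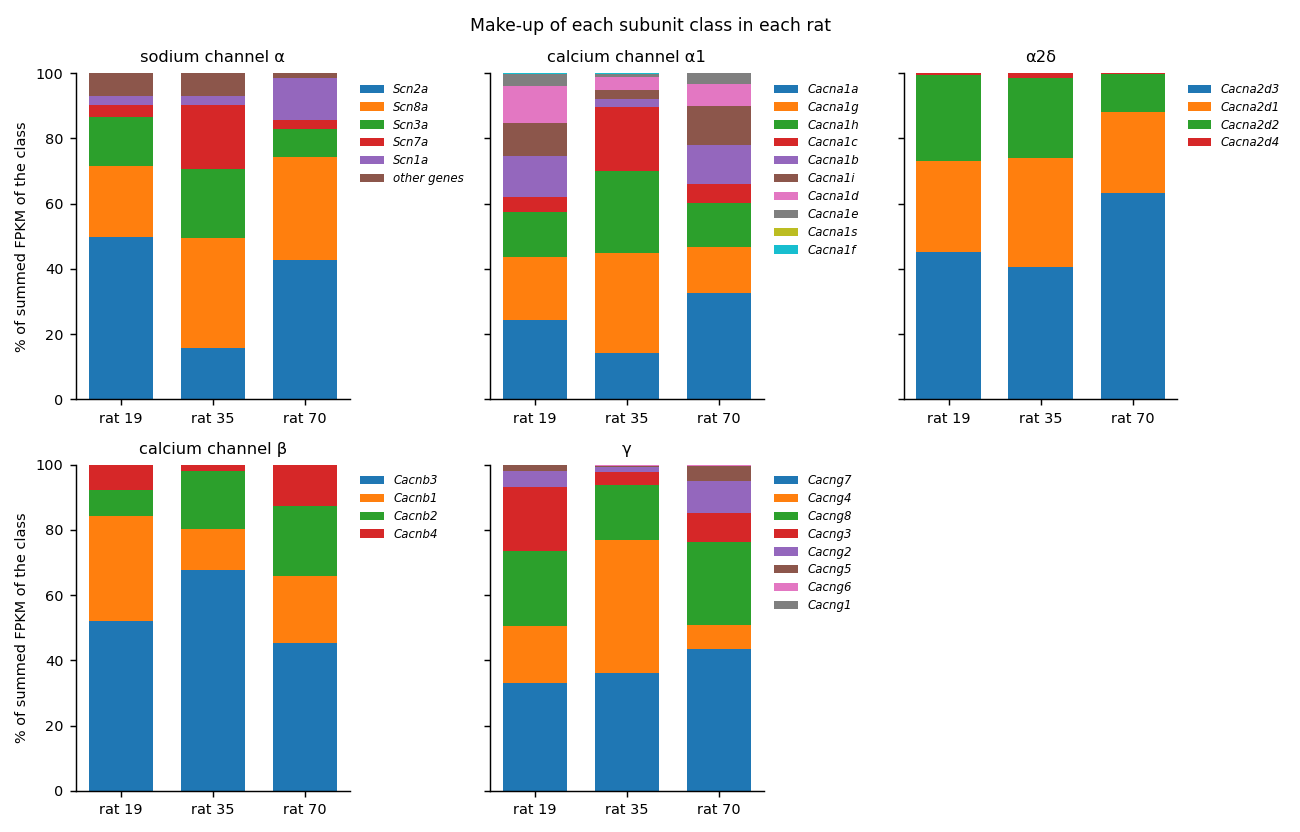
Share of each gene in the summed FPKM of its subunit class, in percent, with 1 stacked bar per rat; low sodium channel alpha genes are drawn together as other genes. In rat 35 the share of Scn2a is 15.7% and that of Cacna1c is 19.6%, and Cacng4 reaches 41.0% of the gamma genes.

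Among the alpha2delta genes, whose products include the receptors of gabapentin, Cacna2d3 had the highest value in every rat, at 13.4, 1.56 and 41.7 FPKM (18.9 ± 20.6, SD, n = 3). Cacna2d1 was at 8.27, 1.29 and 16.4 (8.64 ± 7.53). Cacna2d2 was at 7.85, 0.94 and 7.75 (5.51 ± 3.96), level in rats 19 and 70, where Cacna2d1 and Cacna2d3 were higher in rat 70. Cacna2d4, known from photoreceptors, was at 0.13, 0.053 and 0.054, on 7, 3 and 3 fragments.

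The 4 calcium channel beta genes differed in which rat was highest. Cacnb3 was at 47.9, 16.4 and 56.3 FPKM (40.2 ± 21.1) and was the most abundant member in rats 19 and 35. Cacnb1, the beta subunit of skeletal muscle that neurons also use, was at 29.6, 3.01 and 25.7 (19.4 ± 14.3), slightly higher in rat 19 than in rat 70. Cacnb2 was at 7.18, 4.28 and 26.7 (12.7 ± 12.2), with an FPKM ratio of rat 70 to rat 19 of 3.72. Cacnb4, whose loss causes ataxia in the lethargic mouse, was at 7.26, 0.48 and 15.9 (7.88 ± 7.73).

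The 6 TARP genes differed in which rat was highest, and in how low they were in rat 35. Cacng7 led them at 43.1, 8.72 and 91.9 FPKM (47.9 ± 41.8), followed by Cacng8, the TARP of hippocampal and cortical pyramidal cells, at 29.9, 4.08 and 53.6 (29.2 ± 24.8). Cacng2, or stargazin, was at 6.36, 0.36 and 20.5 (9.09 ± 10.4), and Cacng5 at 2.59, 0.073 and 9.50 (4.06 ± 4.88), the last with 3 fragments in rat 35. These were all highest in rat 70. Cacng3, a TARP of cortical neurons, was at 25.4, 0.95 and 19.2 (15.2 ± 12.7), and Cacng4, which precursor cells of oligodendrocytes also express, at 22.8, 9.95 and 15.7 (16.1 ± 6.43). Both were higher in rat 19 than in rat 70.

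Among the 6 TARP genes, Cacng3 and Cacng4 lay at opposite ends in the difference of rat 35 from rat 19. In log2(FPKM + 1), rat 35 minus rat 19 was -3.76 for Cacng3, the largest difference of any member below 0, and -1.12 for Cacng4. By level, Cacng4 was number 2 among the members in rat 35 and number 18 in rat 70, and its share of the summed gamma genes was 17.5%, 41.0% and 7.41%. The 6 markers of oligodendrocyte precursors summed to 210, 276 and 226 FPKM, with Pdgfra, which fibroblasts share, at 22.9, 152 and 39.1 and Sox10 at 65.5, 28.7 and 45.0, and their part in the Cacng4 values was not tested. Of the other gamma genes, Cacng6 was at 0.065, 0.12 and 1.23, on 2, 4 and 39 fragments. Cacng1, the gamma subunit of skeletal muscle, was at 0.099 in rat 19 and listed at 0 in both others.

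Set in order of mean level, the members ran from Scn3b and Cacng7 through Cacnb3, Scn2b and Cacng8 down to Cacna1f and Scn11a. Of 39 neighbours in this order, all but 1 differed by less than the larger of their SDs, so the order of means over the rats is loose. The exception was the step from Scn7a at 1.503 ± 0.42 to Cacng6 at 0.47 ± 0.66. The order within a rat differed too: Scn4b was number 27, 15 and 12, and Scn2a number 10, 22 and 9.

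Levels of related subunits were therefore set against each other within each rat, as log2 ratios of FPKM + 1, for 12 pairs. The exact two-sided sign-flip permutation test over 3 rats cannot go below p = 0.25, so no pair can pass a threshold of 0.05. In 9 pairs the ratio had the same sign in 3 of 3 rats, each with exact p = 0.25 and 0.33 after Benjamini-Hochberg adjustment over the 12 pairs. Cacng8 exceeded Cacng2 by 1.77 ± 0.38 (SD, n = 3), and Cacna1a exceeded Cacna1b by 1.15 ± 0.26. Scn2b exceeded Scn4b by 2.19 ± 0.91. Negative ratios were those of Cacnb4 to Cacnb3 (-2.63 ± 0.90), Cacna1e to Cacna1a (-2.27 ± 0.71) and Scn1a to Scn2a (-1.87 ± 1.299). Cacna1g to Cacna1h was 0.25 ± 0.17 and Cacna2d1 to Cacna2d2 0.43 ± 0.49. For Cacna2d1 to Cacna2d2 the mean was smaller than its SD.

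In 3 pairs the sign turned between rats, and rat 35 was the odd one each time. Scn8a to Scn2a was -1.10, 0.63 and -0.41 in rats 19, 35 and 70 (exact p = 0.75, adjusted 0.82). Scn2a to Scn3a was 1.56, -0.23 and 2.17 (exact p = 0.5, adjusted 0.6). Cacna1c to Cacna1d was -1.01, 1.34 and -0.21 (exact p = 1, adjusted 1). Without rat 35 the means were -0.76 for Scn8a to Scn2a, 1.86 for Scn2a to Scn3a and -0.61 for Cacna1c to Cacna1d.

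**Figure D4:**
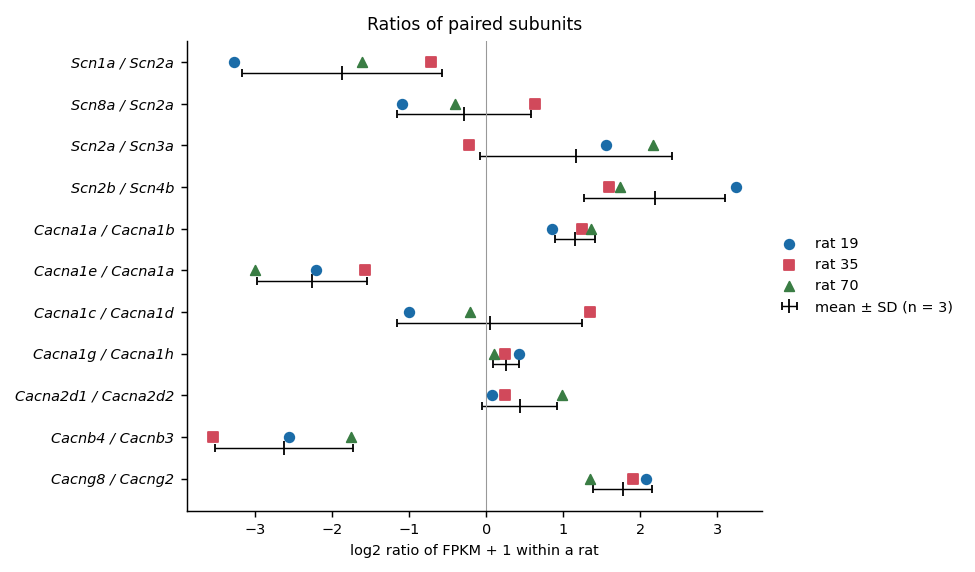
Log2 ratio of FPKM + 1 for 11 pairs of subunits within each rat, with the mean and SD over 3 rats in black. The points of Cacna1a to Cacna1b and of Cacng8 to Cacng2 stay on 1 side of 0, while those of Cacna1c to Cacna1d run from -1.01 in rat 19 to 1.34 in rat 35.

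The members were also set beside the pan-neuronal markers, since most are neuronal genes. Rat 35 minus rat 19 in log2(FPKM + 1) had a median of -1.96 over the 30 members at 1 FPKM or more, -3.81 over the 11 markers and 0.05 over 14134 genes. The scale understates differences of low genes. With a pseudocount of 0.1 in place of 1 the medians were -2.41 for members and -4.14 for markers. At that pseudocount 9 of 30 members lay above every marker: Cacna1c, Cacna1g, Cacna1h, Cacnb2, Cacnb3, Cacng4, Scn2b, Scn4b and Scn7a. For rat 35 minus rat 70, 7 of 30 did so, namely Cacna1c, Cacna1g, Cacna1h, Cacnb3, Cacng4, Scn3a and Scn7a. Cacna1c, Cacna1g, Cacna1h, Cacnb3, Cacng4 and Scn7a stand in both, although the differences share rat 35, and no member lay below the markers in either. Most genes also lie above every marker. In log2(FPKM + 1), rat 35 minus rat 19 had an all-gene median of 0.05 and a highest marker of -1.87. For rat 35 minus rat 70 these were 0.14 and -2.35. A place above the markers is thus no trait of these members, and the share of all genes there was not counted.

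Several members are neighbours on a chromosome, a feature that the choice by name did not use. On chromosome 3 (Rnor 6.0) the files place Scn3a at 51532627 to 51643140, Scn2a at 51687809 to 51822250, Scn1a at 52381975 to 52510507, Scn9a at 52583951 to 52664209 and Scn7a at 52777214 to 52849907. Scn3a and Scn2a, divergent genes 44668 bp apart, both had their lowest value in rat 35 and their highest in rat 70, whereas Scn1a and Scn9a, 73443 bp apart on the same strand, were highest in rats 70 and 19. On chromosome 8, Scn2b (49418965 to 49427689) and Scn4b (49441106 to 49456279) lie 13416 bp apart on the same strand, and Scn2b was at 13.7, 4.03 and 3.43 times the level of Scn4b in rats 19, 35 and 70. Cacng4 and Cacng5 on chromosome 10 are 107897 bp apart and were highest in different rats, Cacng4 in rat 19 and Cacng5 in rat 70. Cacng8 and Cacng7 on chromosome 1, 24264 bp apart, were both lowest in rat 35 and highest in rat 70, while Cacng6 next to them was near 0 in rats 19 and 35.

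**Figure D5:**
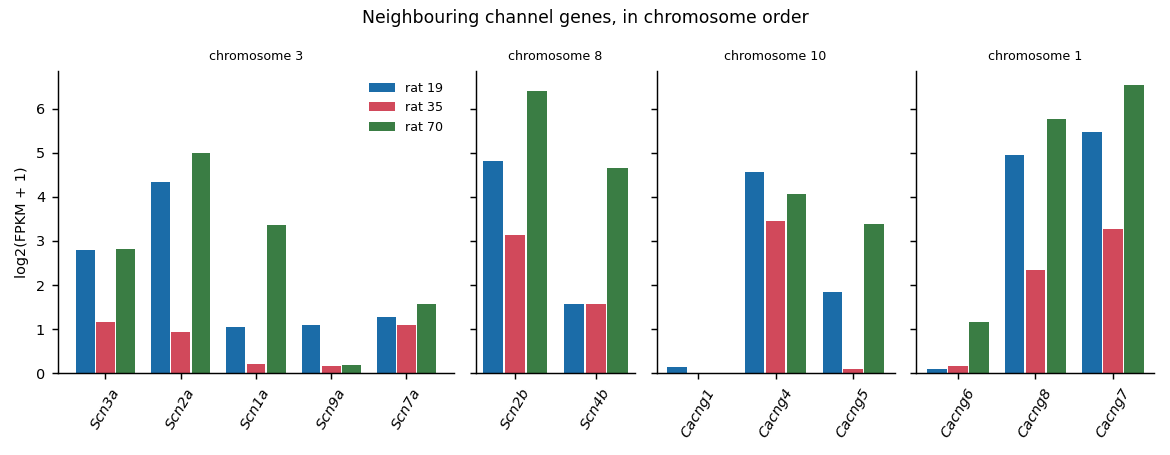
Levels as log2(FPKM + 1) of channel genes that lie next to each other, in chromosome order, with 1 bar per rat. Scn4b is level in rats 19 and 35 at 1.97 and 1.95 FPKM while its neighbour Scn2b is at 27.1 and 7.85.

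Promoter windows of 300 bases, 250 before and 50 after the RefSeq start in the GRCr8 build, were at hand for 27 of the 40 members, as 30 windows. Windows of 13 members, among them Cacna1g, Cacna1h, Cacna1i, Cacna2d4, Cacnb1, Cacnb4, Cacng1, Cacng4, Cacng7, Scn1a and Scn3b, were not used here. The median GC content of the 30 windows was 62.3%, against 51.7% over 33469 windows of all genes. The 4 motifs were searched on both strands: the GC box GGGCGG was in 16 of 30 member windows and 33.1% of all windows, and the TATA box TATAAA in 2 of 30 and 14.2%. The others are the arms of RE1, the element bound by the repressor REST in cells other than neurons: TTCAGCACC was in 1 of 30 member windows and 0.36% of all, and GGACAGC in 3 of 30 and 6.59%. A match describes letters only, and windows without one say nothing about a factor.

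Windows are shown for Cacng3, which was lowest in rat 35 relative to rat 19, for the chromosome 3 genes Scn2a and Scn7a, of which Scn2a was far lower in rat 35 and Scn7a nearly level, for the neighbours Scn2b and Scn4b, and for Cacna1c, lowest in rat 19. They are written 5′ to 3′ on the gene's strand, from RefSeq in GRCr8, with matches of the 4 motifs on either strand in capitals.
Cacng3, chr1:186632312-186632611, plus strand: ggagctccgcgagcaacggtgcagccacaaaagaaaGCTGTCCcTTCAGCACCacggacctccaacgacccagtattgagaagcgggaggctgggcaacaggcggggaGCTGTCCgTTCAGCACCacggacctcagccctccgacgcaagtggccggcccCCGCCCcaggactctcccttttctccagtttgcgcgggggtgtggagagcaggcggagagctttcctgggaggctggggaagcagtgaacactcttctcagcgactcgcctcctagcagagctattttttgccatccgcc
Scn2a, chr3:70710706-70711005, plus strand: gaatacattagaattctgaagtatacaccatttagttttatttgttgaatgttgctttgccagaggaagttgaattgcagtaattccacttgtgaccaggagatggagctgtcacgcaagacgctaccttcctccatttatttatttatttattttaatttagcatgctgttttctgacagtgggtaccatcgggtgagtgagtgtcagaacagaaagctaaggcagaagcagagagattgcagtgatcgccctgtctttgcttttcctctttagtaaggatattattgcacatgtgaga
Scn7a, chr3:71846235-71846534, minus strand: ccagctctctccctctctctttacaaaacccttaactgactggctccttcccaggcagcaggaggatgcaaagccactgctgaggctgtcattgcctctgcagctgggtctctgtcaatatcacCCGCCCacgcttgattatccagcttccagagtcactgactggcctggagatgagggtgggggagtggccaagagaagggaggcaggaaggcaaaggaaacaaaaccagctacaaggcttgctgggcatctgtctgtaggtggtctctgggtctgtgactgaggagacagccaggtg
Scn2b, chr8:54322133-54322432, plus strand: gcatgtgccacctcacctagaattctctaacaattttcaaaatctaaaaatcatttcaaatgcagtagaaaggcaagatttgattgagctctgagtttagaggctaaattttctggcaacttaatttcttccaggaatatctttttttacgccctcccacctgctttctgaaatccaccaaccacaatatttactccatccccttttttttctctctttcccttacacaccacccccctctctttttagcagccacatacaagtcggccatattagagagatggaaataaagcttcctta
Scn4b, chr8:54343623-54343922, plus strand: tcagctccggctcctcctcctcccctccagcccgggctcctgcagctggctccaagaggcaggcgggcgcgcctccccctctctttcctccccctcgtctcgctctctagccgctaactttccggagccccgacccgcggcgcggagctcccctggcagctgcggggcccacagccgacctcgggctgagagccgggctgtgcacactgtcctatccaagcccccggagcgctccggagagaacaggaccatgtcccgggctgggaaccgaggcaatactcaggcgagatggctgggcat
Cacna1c, chr4:154051699-154051998, minus strand: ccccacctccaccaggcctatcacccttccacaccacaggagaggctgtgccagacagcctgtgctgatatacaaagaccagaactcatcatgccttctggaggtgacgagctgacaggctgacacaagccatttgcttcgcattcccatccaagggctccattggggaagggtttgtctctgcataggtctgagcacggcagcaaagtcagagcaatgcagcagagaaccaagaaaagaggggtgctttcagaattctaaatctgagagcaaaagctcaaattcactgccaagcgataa
In the Cacng3 window TTCAGCACC stands at bases 45 to 53 and again at 117 to 125, counted from the window's 5′ end, and each time GCTGTCC, which is GGACAGC read on the other strand, stands before it with 1 base in between. A GC box on the other strand, CCGCCC, follows at bases 161 to 166. The Scn7a window holds CCGCCC at bases 125 to 130. None of the 4 motifs is in the windows of Scn2a, Scn2b, Scn4b and Cacna1c. The neighbours Scn2b and Scn4b differ in base make-up, with 39.0% GC and 2 CpG in Scn2b and 70.0% GC and 24 CpG in Scn4b.

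The proteins that anchor, modulate or serve these channels followed the subunits in the main. Of 36 such genes listed, 35 were in the files and 31 of these were lowest in rat 35, against 34.9% of all genes above 0, and 29 differed by more than 2-fold, against 32.8%. Their median deviations were 0.21, -1.11 and 0.85 in log2(FPKM + 1). Among the 5 most abundant were the calmodulin genes Calm3 (462, 174 and 614 FPKM) and Calm2 (237, 99.5 and 280), whose product binds both channel families as their calcium sensor, the AMPA receptor partner Cnih2 (118, 13.4 and 186) and the calcineurin subunit gene Ppp3ca (87.7, 29.6 and 181). Without rat 35, 10 of 34 partners at 1 FPKM or more differed by more than 2-fold, against 11.1% of all genes.

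Partners of the sodium channel at the axon initial segment showed wide differences. The intracellular modulator Fgf13 was at 17.4, 0.94 and 40.3 FPKM, and Fgf14, another of this family, at 2.59, 0 and 8.46. Ank3, the ankyrin that holds sodium channels at the initial segment, was at 9.42, 4.05 and 20.2, a narrower range than that of Scn2a or Scn8a. Nfasc, an adhesion protein of initial segments, nodes and myelinating glia, was highest in rat 19, at 142, 21.3 and 49.4. Of the 33 partners at 1 FPKM or more, 4 were not lowest in rat 35. The GTPase genes Gem (6.96, 14.4 and 4.48), Rem1 (1.82, 2.60 and 1.62) and Rrad (2.47, 1.76 and 1.69), whose products inhibit calcium channels, were lowest in rat 70, and Cachd1, a relative of the alpha2delta genes, was lowest in rat 19 at 7.37, 9.22 and 12.3. Rem2, the fourth GTPase of this family, was lowest in rat 35, at 1.24, 0.97 and 6.64. Fgf13, Fgf14, Ank3, Nfasc and Rem2, like the markers Pvalb, Nefl, Nefm, Tbr1, Slc17a6, Sox10, Isl1, Prph, Sst, Vip, Lhx6, Wfs1, C1ql2 and Tnnt3 above, were named after their values were seen. The same holds for the markers Penk, Folr1, Kl, Aqp1, Ccdc153, Dsp, Gfap, Col1a2, Npy and Ckm.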

How the data were processed

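The authors deposited FPKM, 1 table of 30957 Ensembl genes per rat; per the labels, messenger RNA was separated from total RNA of the motor cortex, fragments per gene were counted and normalized, and FPKM was computed by a Perl script. The submitters' processing notes list HISAT2 2.0.4, StringTie 1.3.0 and build Rnor 6.0 with no role, and strand and the handling of fragments that match several paralogs are not given in the sources used here. Each library counts as 1 animal by its number.

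FPKM was used as deposited, on the scale log2(FPKM + 1), with a minimum mean of 1 FPKM where stated (Python 3.11.15, pandas 2.3.3, numpy 2.4.6, scipy 1.17.1). A fold over 2 was counted on FPKM + 1. Effective depth and gene length were recovered from the steps of the values: whole fragments in all rats, within 0.005, were found for 99.8% of 1000 sampled genes at 1 FPKM or more and for 2.4% after random changes. The shortest length was taken, so a low gene may have more fragments; 1 nonzero value fixes no length. Poisson intervals at 95% and limits of 3 fragments cover counting error only. Values of 0 can be failed estimates. Ratios of pairs were tested with an exact sign-flip permutation over rats. Counting, depth recovery and motif search were tested on simulated data.

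The members and lists were chosen with earlier results of these data known. Named genes are all members, both genes of each pair, the first gene of marker lists, the 5 most abundant partners and those not lowest in rat 35. Alternatives were a pseudocount of 0.1, minima of 0.5 and 5 FPKM or none, 3 rescalings, summing rows of a symbol and leaving out each rat. No control group was analysed here, so nothing is compared with healthy cortex. Some genes are not reported here.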

Additional observations from a re-analysis of the deposited data

How the results depend on the processing

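Of 687 alternative values over 86 results, 674 kept their direction and stayed within the set margin. Members lowest in rat 35 numbered 27 to 30 without single rats, and 28 of 30 after rescaling to a sum of 1000000, where Scn4b was lowest in rat 19; members over 2-fold apart numbered 15 to 27, with 15 without rat 35, and partners over 2-fold apart 10 to 26, with 10 without rat 35. Without rat 35 the median deviation of rat 19 turned to -0.48 for members (0.30 with all rats) and to -0.27 for partners, since rat 70 alone is then left beside it; the ranges over single rats left out were -0.48 to 0.98 and -0.27 to 0.77. Scn8a to Scn2a ran from -0.76 to 0.11, the last without rat 19, and Cacna1c to Cacna1d from -0.61, without rat 35, to 0.57; for these the cause was not tested. Members above every pan-neuronal marker in rat 35 minus rat 19 were 14 of 30, but 9 with a pseudocount of 0.1, 8 of 23 at a minimum of 5 FPKM and 24 of 40 with no minimum; in rat 35 minus rat 70 they were 10 of 30, but 5 of 23 and 20 of 40 under those minima. At the main setting the median of all genes lay above every marker too, in both differences. At a pseudocount of 0.1, rat 35 minus rat 19 was -3.04 for Cacna1e and -3.96 for Cacng5, against -1.32 and -1.74. The comparisons with the pan-neuronal markers, of rat 70 with rat 19 and of single genes under alternatives were added after the data were seen. Members more than 2-fold higher in rat 70 than in rat 19 numbered 12 to 18 over the alternatives that hold both rats. Rescaling to a common sum raised the median gene by 0.80, 0.85 and 0.96 (log2) in rats 19, 35 and 70, and by 1.33, 1.14 and 1.38 without mitochondrial genes; on the log2(FPKM + 1) scale low genes shift less. No paired analysis was possible because the rats form 1 group. Depth limits the low values: in rat 35 that of Cacng2 rests on 17 fragments and that of Cacng5 on 3.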
